A study of Mus musculus with 21 samples.

Results

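The E2F factors and the retinoblastoma (Rb) family are the transcription factors and corepressors that gate the passage of a cell from G1 into S phase. The group described here was set by gene symbol and holds E2f1, E2f2, E2f3, E2f5, E2f6, E2f7, E2f8, Rb1, Rbl1 and Rbl2. Each was represented by the brightest probeset that carries only its symbol, and arrays of the same pool of mice were averaged. All 10 members were found among the 19938 genes with such a probeset, and all 10 were among the 13956 genes bright enough to be tested.

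Expression was measured on Affymetrix Mouse Gene 1.0 ST arrays in muscle stem cells (satellite cells, the resident stem cells of skeletal muscle) that were sorted as YFP+ cells and not cultured. Every mouse carried Pax7CreER/+;Rosa26REYFP/+, so that tamoxifen, given at least 2 weeks earlier, switched on YFP, and any floxed allele was recombined, in cells that express Pax7. Each pool held 3 to 4 mice of 3 to 5 months. Quiescent satellite cells (QSC) came from noninjured mice and contralateral satellite cells (CSC) from the hindlimb opposite to a limb injured with barium chloride. WT mice (mixed C57BL6) gave 3 pools of QSC on 5 arrays, 3 pools of CSC at 2.5 days on 4 arrays and 1 pool of CSC at 28 days. TSC1 KO mice (TSC1flox/flox, mixed C57BL6) gave 1 pool of QSC. Rptor KO mice (Rptrflox/flox, mixed C57BL6) and cMet KO mice (cMetflox/flox, C57BL6 mixed FVB) gave 1 pool of QSC and 1 pool of CSC at 2.5 days each. TSC1 restrains the growth-promoting kinase complex mTORC1, raptor (Rptor) is a subunit that mTORC1 needs, and cMet is the receptor of hepatocyte growth factor. The 6 groups of 1 pool were measured on 2 arrays each and have no replicate check of their own: their tests assume that a pool varies like the WT pools, and what a pool shows of its genotype or time and what it shows of its own mice cannot be told apart. For cMet KO the strain background also differs from WT.

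E2F proteins bind DNA with a DP partner and switch on genes for DNA synthesis and mitosis, or hold them off. In resting cells the pocket proteins Rb1, Rbl1 (p107) and Rbl2 (p130) bind E2Fs and keep those genes low, Rbl2 chiefly with E2f4 or E2f5 in the DREAM complex. Cyclin-dependent kinases of G1 phosphorylate the pocket proteins and release E2F. E2f1, E2f2 and E2f3 are the activators and E2f5 a pocket-bound repressor. E2f6 represses without pocket proteins, within a polycomb complex, and the atypical E2f7 and E2f8 repress without a DP partner and are themselves made in S phase as E2F targets.

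Several members have the E2F motif in a window around a start site of their own, and these stretches are shown because they belong to genes whose levels are followed below. Motifs were searched on both strands of RefSeq promoter windows (build GRCm38.p6, 250 bases before to 50 after a start site), which 8 of the 10 members have. E2f1, E2f2, E2f3, E2f6, E2f7, E2f8, Rbl1 and Rbl2 are those members. The words searched were TTTCCCGC, TTTCGCGC, TTTGCCGC and TTTGGCGC, which 2.26% of all 32851 windows hold, and the same words without their first T, which 9.57% hold. Each stretch runs 5′ to 3′ on the gene's strand, with the matches to the shorter words, or to their reverse complements, in capitals:
E2f2, chr4:136172294-136172323, + strand: cgaatttggcggcatatagtTTGGCGCtaa
E2f3, chr13:29986019-29986094, - strand: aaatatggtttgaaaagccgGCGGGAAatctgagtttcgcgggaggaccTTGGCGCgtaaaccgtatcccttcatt
E2f7, chr10:110745196-110745373, + strand: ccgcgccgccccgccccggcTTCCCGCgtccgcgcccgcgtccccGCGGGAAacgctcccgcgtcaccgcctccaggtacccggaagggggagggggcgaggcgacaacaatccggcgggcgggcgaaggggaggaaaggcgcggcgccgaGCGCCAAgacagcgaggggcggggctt
E2f8, chr7:48881681-48881727, - strand: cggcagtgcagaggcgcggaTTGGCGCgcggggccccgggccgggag
Rbl1, chr2:157204525-157204571, - strand: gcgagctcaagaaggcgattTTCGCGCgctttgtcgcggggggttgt
The match begins 40 bases after the start site in E2f2, while in E2f8 and Rbl1 it begins at positions -111 and -17 relative to it. E2f3 has 2 matches and E2f7 has 3. A longer word, which overlaps 1 of these matches, is held by E2f2, E2f3, E2f7 and Rbl1. The windows of E2f1, E2f6 and Rbl2 do not hold these words. E2f2 and E2f3 each have 2 windows, and the second of each does not hold them either. These second windows belong to start sites 8508 and 1673 bases inside the annotated gene. The shares above are per window, not per gene. The E2f1 and E2f8 windows belong to start sites 466 and 477 bases inside the annotated gene, so they are not the outermost promoters. A match of letters describes the window and does not show that a factor binds there.

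All values are log2 signals after RMA, and array medians ran from 7.03 to 7.21. A probeset's level depends on its probes, so levels are compared between pools for each gene and never between genes. Satellite cell markers were high in every pool, with a mean over 10 markers between 11.06 and 11.92, Pax7 itself lying between 10.27 and 12.10. Markers of other cells were not constant, and in bulk RNA fewer cells of a type and less RNA per cell cannot be told apart. The mean of 12 endothelial markers was 8.99 to 9.58 in WT QSC, 7.81 to 8.27 in WT CSC at 2.5 days, 8.19 at 28 days, 9.98 in cMet KO CSC and 9.71 in the matching QSC. The mean of 10 macrophage and monocyte markers was 9.29 in Rptor KO CSC and 6.87 to 7.96 in the other 11 pools. The mean of 12 mature fibre markers was 8.39 to 8.68 in WT CSC at 2.5 days, 8.41 in TSC1 KO QSC and 7.35 to 8.23 in the other pools. No marker list is at 0 in any pool.

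In 3 pools the second array differs from the first, and this bears on E2f5 and Rb1 most. Between the 2 arrays of a pool, r over all tested genes was 0.973 to 0.982 in WT CSC pool 1, Rptor KO QSC and Rptor KO CSC, and 0.994 to 0.998 in the other 6 pools with 2 arrays. The second array of those 3 pools was lower than the first by 0.64 to 0.87 for Rb1 and by 0.73 to 0.92 for E2f5, whereas in the other 6 pools the arrays differed by at most 0.10 for Rb1 and 0.06 for E2f5. E2f3 (by 0.24 to 0.58) and E2f6 (by 0.15 to 0.38) were also lower on each of the 3 second arrays. E2f1, E2f2 and E2f7 were higher on them, by 0.07 to 0.67, by 0.14 to 0.51 and by 0.02 to 0.22. In the other 6 pools the second array minus the first ran from -0.38 to 0.24 for E2f3 and -0.06 to 0.29 for E2f6. It ran from -0.22 to 0.18 for E2f1, -0.37 to 0.11 for E2f2 and -0.26 to 0.27 for E2f7. Part of these smaller differences is thus no larger than in the other pools. Where leaving out the 3 second arrays changes the call or the direction of a member's difference that rests on these pools, or clearly changes its size, the value without them is also given.

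**Figure D1:**
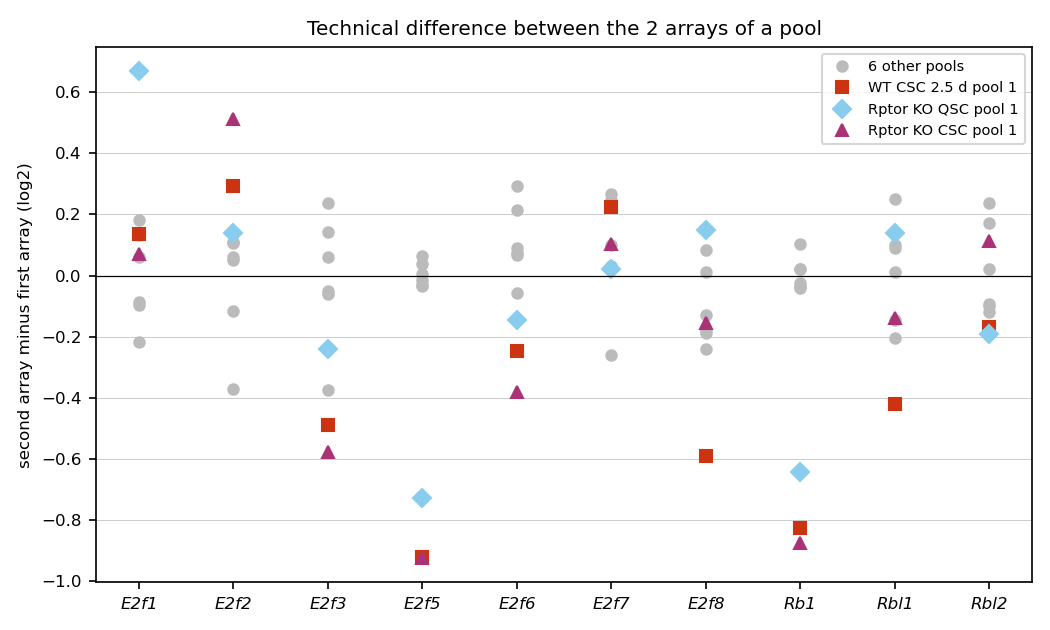
Difference between the second and the first array of a pool (log2, vertical axis) for each member (horizontal axis), in the 9 pools that have 2 arrays. Coloured symbols are the 3 pools whose arrays differ, grey points the 6 others; for Rb1 and E2f5 the coloured symbols lie between -0.92 and -0.64 and the grey points between -0.04 and 0.10.

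Stem cells opposite an injury had more mRNA of 5 family members at 2.5 days than cells of noninjured WT mice. The activators E2f1 and E2f2, the atypical repressors E2f7 and E2f8, and the pocket protein Rbl1 rose, by 2.21-fold to 4.66-fold. E2f5 fell by log2 0.55, while E2f3, E2f6, Rb1 and Rbl2 did not pass the test. Thus 6 of 10 members were called (limma, adjusted p under 0.05), against 18% of all tested genes. Of the 10, 5 were higher (10.6% of all genes) and 1 was lower (7.36% of all genes). The members' median difference was 0.70 and that of all genes was -0.05. The 3 CSC pools lay wholly outside the range of the 3 QSC pools for 7 members, which was so for 37.9% of all genes.

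**Figure D2:**
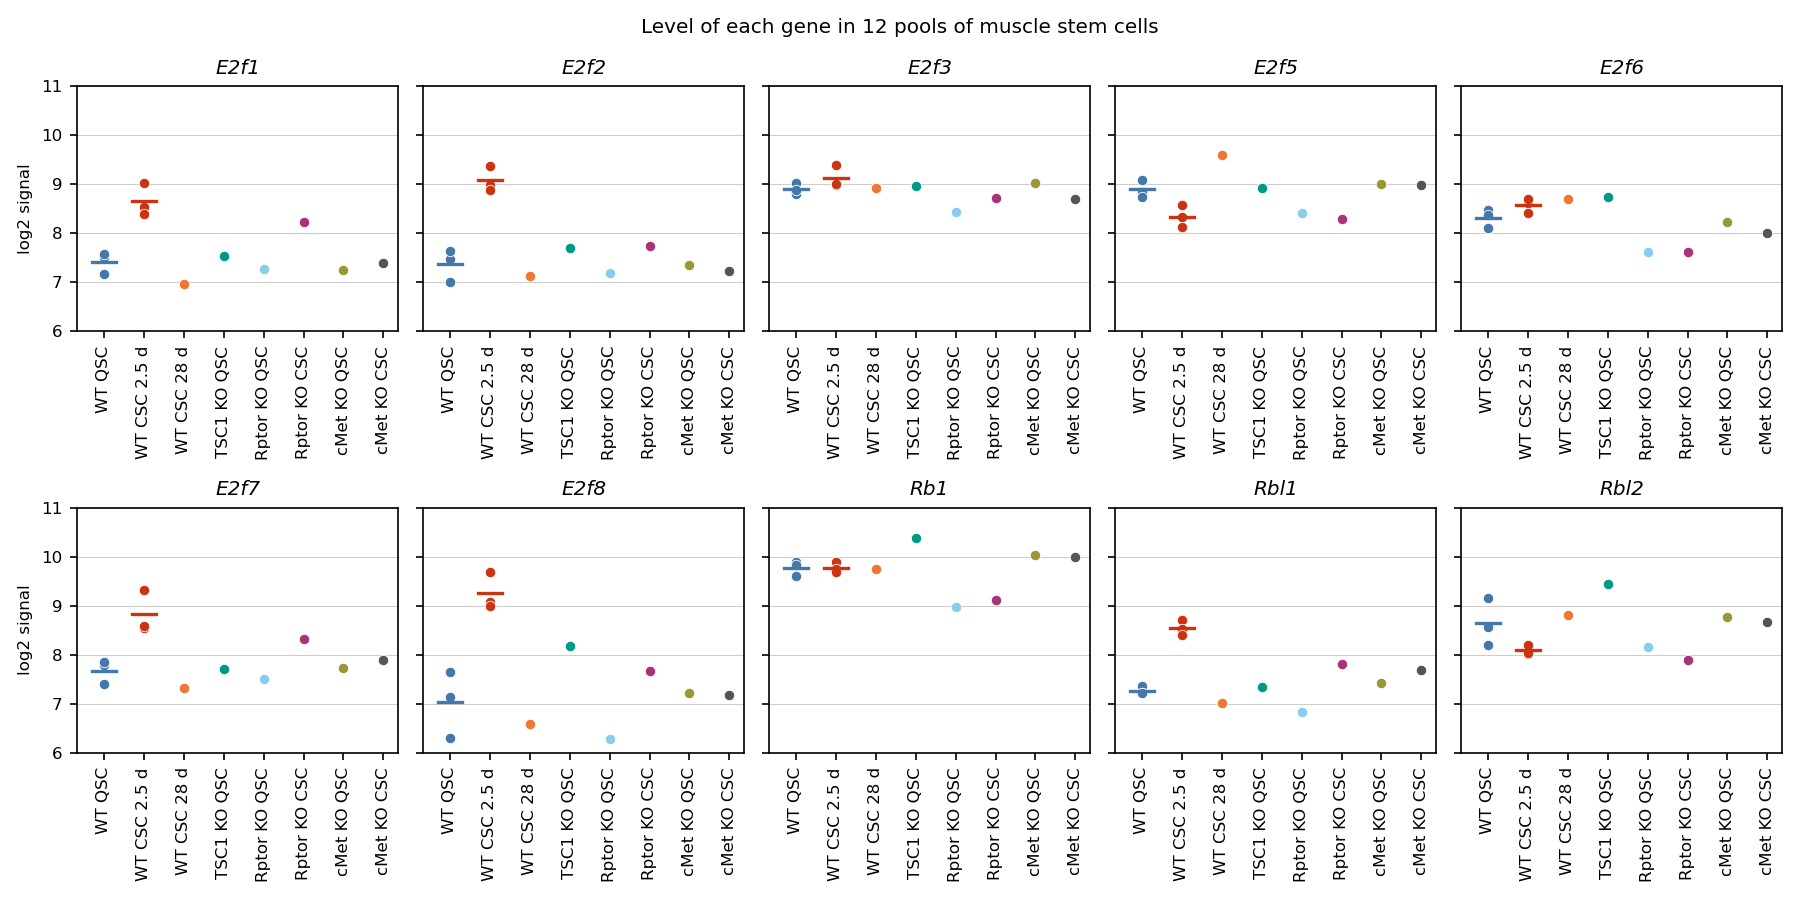
Log2 signal (vertical axis) of each member in 12 pools, arranged by group (horizontal axis); points are pools and lines are the means of the groups with 3 pools. The 3 WT CSC pools at 2.5 days stand above all WT QSC pools for E2f1, E2f2, E2f7, E2f8 and Rbl1, while the Rb1 levels of these groups overlap.

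Among the activators, E2f1 (chr2:154559400-154569892) promotes S phase entry and, when in excess, cell death. Its signal was 7.52, 7.16 and 7.58 in the WT QSC pools and 9.03, 8.54 and 8.39 in the WT CSC pools. Every CSC pool lay above every QSC pool, and the difference was 1.23 ± 0.19 (SE, n = 3 pools against 3, limma, adjusted p = 0.00353). E2f2 (chr4:136172274-136196057), an activator that acts with E2f1 and E2f3 in proliferating cells, was at 7.47, 6.99 and 7.64 in QSC and at 9.36, 8.98 and 8.88 in CSC. These groups did not overlap either, with a difference of 1.70 ± 0.20 (limma, adjusted p = 0.000875). E2f3 (chr13:29906575-29986064), which encodes an activating and a shorter isoform from separate promoters, was at 9.02, 8.80 and 8.88 in QSC and at 9.38, 8.97 and 8.99 in CSC. These ranges overlap, and the difference of 0.22 ± 0.15 did not pass (limma, adjusted p = 0.373). The dimmer of the 2 E2f3 probesets overlapped as well, at 8.55, 8.11 and 8.18 in QSC and 8.70, 8.20 and 8.01 in CSC.

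The atypical E2Fs moved with E2f1 and E2f2. E2f8 (chr7:48866429-48882073) had the widest spread of any member, at 7.14, 6.31 and 7.64 in QSC and 9.68, 9.08 and 8.99 in CSC. Its lowest CSC pool lay above its highest QSC pool, and the difference of 2.22 ± 0.32 was the largest among the members (4.66-fold, limma, adjusted p = 0.00241). E2f7 (chr10:110745439-110787384), which pairs with E2f8 to restrain E2F targets late in S phase, was at 7.78, 7.40 and 7.85 in QSC and at 9.33, 8.55 and 8.59 in CSC. It too did not overlap, with a difference of 1.15 ± 0.22 (limma, adjusted p = 0.00942).

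The repressors E2f5 and E2f6 did not rise. E2f5 (chr3:14578602-14606309) was at 8.84, 9.08 and 8.75 in QSC and at 8.12, 8.57 and 8.32 in CSC, a difference of -0.55 ± 0.16 (limma, adjusted p = 0.0421). All CSC pools were below all QSC pools, but the lowest, pool 1, is one whose arrays differ: its arrays read 8.58 and 7.66. Without the 3 second arrays the difference was -0.40 (adjusted p = 0.0809), and the call was lost under 12 of 18 alternative settings with adjusted p up to 0.191. E2f6 (chr12:16810909-16826752) was at 8.47, 8.10 and 8.37 in QSC and at 8.62, 8.69 and 8.41 in CSC. The groups overlap, and the difference of 0.26 ± 0.15 did not pass (limma, adjusted p = 0.272).

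The pocket proteins went separate ways. Rbl1 (chr2:157145893-157204534), the pocket protein made in cycling cells, was at 7.35, 7.21 and 7.21 in QSC and at 8.70, 8.52 and 8.40 in CSC, with a difference of 1.28 ± 0.13 and the smallest adjusted p among the members (limma, 0.000489). Rb1 (chr14:73192858-73325951), the tumour suppressor that binds the activator E2Fs, was at 9.88, 9.60 and 9.82 in QSC and at 9.89, 9.74 and 9.68 in CSC. Its groups overlap, with a difference of 0.00 ± 0.13 (limma, adjusted p = 0.997), and of 0.14 (adjusted p = 0.636) without the 3 second arrays. Rbl2 (chr8:91070057-91123844), the pocket protein of resting cells, was at 9.16, 8.57 and 8.20 in QSC and at 8.02, 8.04 and 8.19 in CSC. Its CSC pools lay below its QSC pools by 0.56 ± 0.22, the third QSC pool by very little, and the test was not passed (limma, adjusted p = 0.118). The QSC pools spread widely, so the size depends on which of them are used. Without WT QSC pool 3, the lowest, the difference was -0.78 and passed (limma, adjusted p = 0.0273). Without pool 1, the highest, it would be smaller than with all 3 QSC pools. Over the same groups 10 of 12 endothelial, 4 of 9 tested fibro-adipogenic, 4 of 8 pericyte and smooth muscle and 3 of 10 satellite cell markers were lower and 4 of 10 tested mature fibre markers higher in CSC, and their part in these differences was not tested.

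The genes around the family, from lists of partners, regulators and known targets, changed broadly in the same pools. Of all tested genes 10.6% were higher and 7.36% lower in this comparison. Of the DP partners, Tfdp1 rose by 1.00 ± 0.16 and Tfdp2 fell by 0.45 ± 0.12 (limma, adjusted p = 0.00408 and 0.0298). E2f4, the other pocket-bound repressor E2F, rose by 1.24 ± 0.28 (limma, adjusted p = 0.0175), its QSC pools being at 9.33, 8.30 and 9.46 and its CSC pools at 10.49, 10.20 and 10.10; the call was lost without WT CSC pool 1 or pool 2. E2f4 and E2f5, which share the role of pocket-bound repressor, differed in opposite directions, though the E2f5 call, as given above, was also lost under many settings. Of 9 cyclins, kinases and phosphatases of G1 that act on the pocket proteins, 5 were higher and 1 lower, with a median of 0.94. Cyclin E2 (Ccne2) rose by 2.69 ± 0.20, Cdk6, a partner of the D cyclins, by 2.30 ± 0.17, cyclin E1 (Ccne1) by 1.68 ± 0.18 and Cdc25a, a phosphatase that activates them, by 0.99 ± 0.12. Cyclin D2 (Ccnd2) fell. Of 6 tested inhibitors of these kinases none rose, and Cdkn1b (p27) fell by 0.48 ± 0.13 (limma, adjusted p = 0.0384). The calls of Tfdp2, Ccnd2 and Cdkn1b were each lost under some of the alternative settings.

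Target genes gave the highest counts. All 19 tested mitotic genes that E2F and DREAM control were higher, with a median of 1.64. Among them were the mitotic kinesins Kif20a (2.27 ± 0.12) and Kif11 (1.87 ± 0.12), cyclin A2 (Ccna2, 2.05 ± 0.13) and the kinase Plk1 (2.99 ± 0.21). Of 28 tested replication targets, 23 were higher and none lower, with a median of 1.27, including the helicase Hells (2.04 ± 0.13), Uhrf1, which maintains DNA methylation (2.08 ± 0.17), and the replicative helicase subunits Mcm2 (2.13 ± 0.16) and Mcm6 (2.05 ± 0.16). Of 8 genes of the MuvB core and its activating partners 4 were higher: B-Myb (Mybl2, 1.35 ± 0.13), Foxm1 (1.77 ± 0.25), Mybl1 (1.01 ± 0.17) and Rbbp4 (0.58 ± 0.13). In contrast 1 of 12 genes of the polycomb complex that E2f6 belongs to was higher (L3mbtl2, 0.67 ± 0.18), and 1 of 6 tested E2F targets in cell death (Casp8, 0.60 ± 0.16). With so few genes these 2 counts are not set apart from the 10.6% of all tested genes that were higher. Both calls were lost under some of the alternative settings. Neither tested germline gene that E2f6 represses was called, Stag3 differing by -0.25 ± 0.12 and Tuba3a by 0.11 ± 0.18.

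By 28 days after injury the 5 members that rose in WT were within or below the range of the WT QSC pools. In the 1 pool of WT CSC at 28 days E2f1 was at 6.95, E2f2 at 7.13, E2f7 at 7.32, E2f8 at 6.59 and Rbl1 at 7.01, all below every 2.5-day pool. Against WT QSC 0 of 10 members were called, nor was any of all tested genes (0%, with 637 genes at an unadjusted p under 0.05). Over 13956 tested genes chance alone is expected to pass more than this, here and for the counts of this kind below. The differences of these 5 members from WT QSC ran from -0.47 to -0.24. E2f1, E2f7 and Rbl1 lay below all WT QSC pools, which began at 7.16, 7.40 and 7.21, and E2f2 and E2f8 within their range. E2f5 and E2f6 lay above the WT QSC pools, which reached 9.08 and 8.47. Against the 3 pools at 2.5 days 6 members were called, against 8.38% of all genes: E2f8 differed by -2.66 ± 0.45, E2f2 by -1.95 ± 0.28, E2f1 by -1.70 ± 0.27, Rbl1 by -1.53 ± 0.19 and E2f7 by -1.50 ± 0.32 (limma, adjusted p from 0.00247 to 0.0231).

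E2f5 stood out at 28 days in the other direction. Its 28-day pool, at 9.59, was the highest of the 12 pools, and both of its arrays were high, at 9.56 and 9.63. It was 1.26 ± 0.22 above the 2.5-day pools (limma, adjusted p = 0.0124), a call kept under all 16 alternatives run, and 0.70 ± 0.22 above WT QSC, which did not pass (limma, adjusted p = 0.902). Rb1 at 9.75, E2f3 at 8.91 and E2f6 at 8.70 differed from the 2.5-day pools by -0.02 (-0.15 without the 3 second arrays), -0.20 and 0.12 and were not called, and Rbl2 was at 8.82, a difference of 0.73 ± 0.31 (adjusted p = 0.192). All 19 mitotic targets and 21 of 28 replication targets were lower at 28 than at 2.5 days, Ccna2 by -2.76 ± 0.19 and Mcm2 by -2.13 ± 0.22. The endothelial markers, with a mean of 8.19, were as low at 28 days as at 2.5 days. Mature fibre markers differed together with the members: 4 of 10 tested were lower at 28 than at 2.5 days and none was higher, with a median of -1.09, and their part was not tested.

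In the TSC1 KO QSC pool, from noninjured mice, no member differed past the test. None of the 10 members was called against WT QSC, and 0.0143% of all genes were. All 10 differences were positive, with a median of 0.22, as were 56.3% of all genes' differences. Of the 10, 8 were positive after quantile normalization again or without WT QSC pool 2. The highest member relative to WT QSC was E2f8, at 8.17 where the WT QSC pools reached 7.64 at most, a difference of 1.15 ± 0.45 (limma, adjusted p = 0.535). Rb1 at 10.37 and Rbl2 at 9.45 were each at their highest of all 12 pools, with differences of 0.61 ± 0.19 (adjusted p = 0.451) and 0.81 ± 0.31 (adjusted p = 0.531). E2f1 at 7.52, E2f7 at 7.70 and Rbl1 at 7.35 lay within the range of the WT QSC pools, and E2f2 at 7.70 just above it. None of the 28 replication or 19 mitotic targets was called, the largest difference being that of Rrm2, the ribonucleotide reductase subunit of S phase (1.39 ± 0.47, adjusted p = 0.471). This pool also had the highest mean of satellite cell markers, 11.92, and a mean of mature fibre markers above the WT QSC range, and their part was not tested.

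In the Rptor KO QSC pool, from noninjured mice, the values were lower than in WT QSC, again without a call among the members. None of the 10 passed against WT QSC, and 0.122% of all genes did. All 10 differences were negative, with a median of -0.47, against -0.00 for all genes, of which 49.6% were positive; without the 3 second arrays the 10 stayed negative, with a median of -0.43, the differences of E2f1 and E2f5 moving from -0.15 to -0.48 and from -0.48 to -0.12. Rb1 was at 8.96 (arrays 9.28 and 8.64), below the WT QSC pools on either array, a difference of -0.80 ± 0.19 (limma, adjusted p = 0.172) that shrank to -0.48 without the second arrays. E2f6 was at 7.61 and differed by -0.70 ± 0.21 (adjusted p = 0.253). Rbl1 at 6.83 and E2f8 at 6.28 were at their lowest of all pools, with differences of -0.43 ± 0.19 and -0.75 ± 0.45. The E2f8 signal here, and in WT QSC pool 2 (6.31), was dim. It lay below log2 6.45, the mean under which genes were not tested.

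Mitotic targets did change in this pool. Of 19, 5 were lower than in WT QSC and none higher, with a median of -0.83, and 4 were lower without the 3 second arrays. Ccna2 was at 6.45 where the WT QSC pools were at 9.19, 8.91 and 9.05, a difference of -2.59 ± 0.19 (limma, adjusted p = 0.00293). Mki67, which encodes the proliferation marker Ki-67, differed by -2.16 ± 0.19, Top2a, the topoisomerase that untangles chromosomes, by -1.89 ± 0.18 and Kif11 by -1.50 ± 0.17, all past the test. The Ccna2 signal in this pool was dim, at the log2 6.45 that was the limit on gene means for testing. None of the 28 replication targets was called, with a median of -0.10. The count of mitotic calls was 3 without WT CSC pool 1 and 2 without pool 2 or 3, which also leaves fewer degrees of freedom for the spread.

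In cMet KO QSC all members were near WT QSC. None of the 10 was called, nor any of all genes (0%, with 185 genes at an unadjusted p under 0.05), and the differences ran from -0.17 for E2f1 to 0.26 for Rb1. E2f1 was at 7.25, E2f2 at 7.36, E2f7 at 7.73, E2f8 at 7.21 and Rbl1 at 7.42, and of these Rbl1 lay just above the range of the WT QSC pools and the other 4 within it.

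The response to injury elsewhere was then compared between genotypes. In Rptor KO the 5 members that rose in WT were each higher in the CSC pool than in the QSC pool, but no member passed this test between single pools, and 0.258% of all genes did. Rbl1 was at 7.81 against 6.83 (0.98 ± 0.23, limma, adjusted p = 0.248), E2f8 at 7.66 against 6.28 (1.38 ± 0.55, adjusted p = 0.915) and E2f1 at 8.22 against 7.27 (0.95 ± 0.33, adjusted p = 0.803). E2f7 was at 8.31 against 7.51 and E2f2 at 7.74 against 7.18. The other members differed by -0.27 for Rbl2 to 0.28 for E2f3. Both pools are among those whose arrays differ, and without the 3 second arrays the range was -0.42 for Rbl2 to 0.44 for E2f3, with E2f1 at 1.25, E2f2 at 0.37, Rb1 at 0.28 where it had been 0.16, E2f5 at -0.03 where it had been -0.13, and E2f6 at 0.11 where it had been -0.00. None was called. On single arrays E2f1 read 6.93 and 7.60 in QSC and 8.19 and 8.26 in CSC, so that both CSC arrays lay above both QSC arrays.

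**Figure D3:**
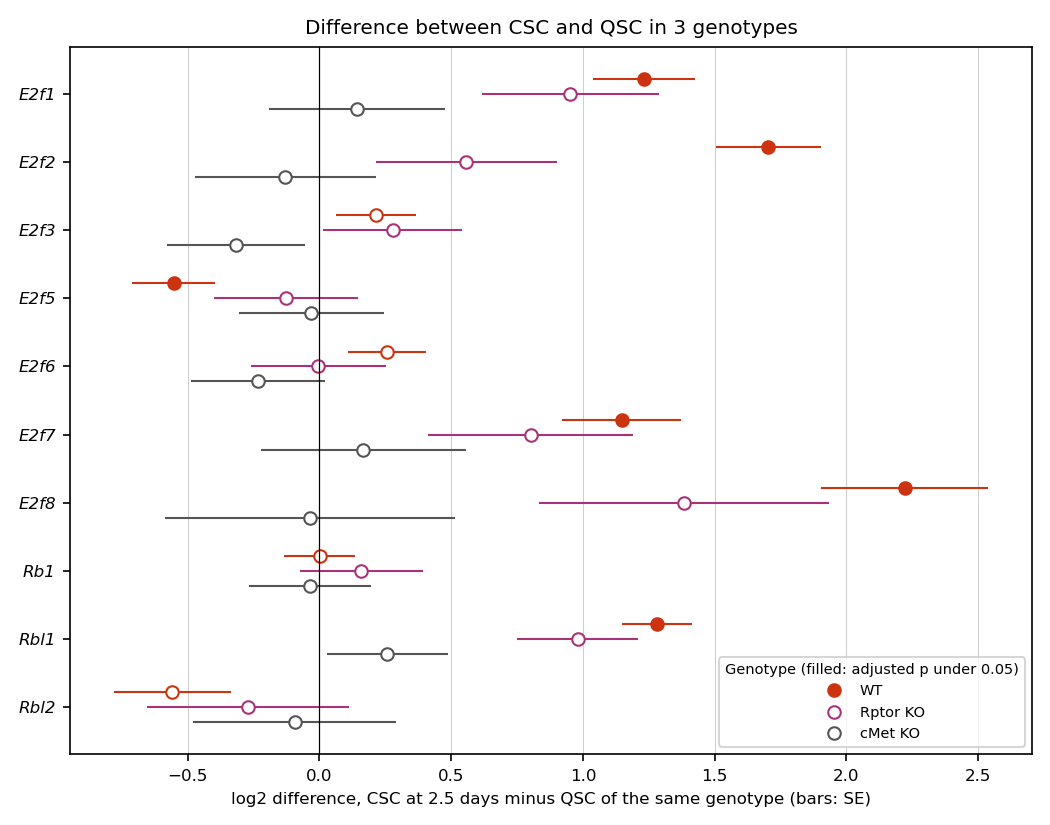
Difference in log2 signal between CSC at 2.5 days and QSC of the same genotype (horizontal axis, bars are SE) for each member (vertical axis) in WT, Rptor KO and cMet KO; filled points have an adjusted p under 0.05. In WT 6 points are filled, the differences of E2f1, E2f2, E2f7, E2f8 and Rbl1 lie between 0.56 and 1.38 in Rptor KO, and those of all members lie between -0.32 and 0.26 in cMet KO.

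In cMet KO no member differed by more than 0.32 between CSC and QSC. None was called, nor was any of all genes (0%, with 75 genes at an unadjusted p under 0.05). E2f8 was at 7.18 in CSC and 7.21 in QSC, E2f2 at 7.23 and 7.36, and E2f1 at 7.39 and 7.25. Rbl1, at 7.68 against 7.42, had the highest difference (0.26 ± 0.23, limma, adjusted p = 1), and E2f3, at 8.70 against 9.02, the lowest (-0.32 ± 0.26).

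Set against the WT CSC pools directly, both knockouts were lower for part of the family. In cMet KO CSC 4 of 10 members were lower, against 6.74% of all genes called: E2f8 by -2.07 ± 0.45, E2f2 by -1.85 ± 0.28, E2f1 by -1.26 ± 0.27 and Rbl1 by -0.86 ± 0.19 (limma, adjusted p from 0.00734 to 0.0310). Without any single WT CSC pool 1 of them, E2f2, was still called. The same pool had 10 of 12 endothelial markers higher than WT CSC, with a median difference of 2.04. Of fibro-adipogenic markers 4 of 9 were higher (median 0.95), of pericyte and smooth muscle markers 2 of 8 (0.71) and of macrophage markers 2 of 9 (0.50), while 1 of 10 mature fibre markers was lower (median -1.06). The part of these markers was not tested. In Rptor KO CSC 2 of 10 members were lower, against 3.9% of all genes: E2f2, at 7.74 (-1.33 ± 0.28, limma, adjusted p = 0.0373), and E2f6, at 7.61 (-0.97 ± 0.21, adjusted p = 0.0395). All 10 differences were negative with all arrays, and 9 without the 3 second arrays, where E2f5 turned from -0.05 to 0.26, E2f3 went from -0.41 to -0.20 and Rb1 from -0.65 to -0.35. The E2f6 call was lost without them, and 0 members were called when any single WT CSC pool was left out. In this pool 8 of 9 tested macrophage markers were higher than in WT CSC, with a median difference of 1.99, and 2 of 10 mature fibre markers were lower, with a median of -1.17. Their part was not tested.

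The difference of the responses was tested itself, as an interaction. No member passed for Rptor KO (0% of all genes called, 620 at an unadjusted p under 0.05) and none for cMet KO (0.158% of all genes called). For cMet KO the response minus that of WT was -1.83 ± 0.40 for E2f2 (limma, adjusted p = 0.127), -2.26 ± 0.63 for E2f8 (0.242), -1.02 ± 0.26 for Rbl1 (0.194), -1.09 ± 0.39 for E2f1 (0.384) and -0.98 ± 0.45 for E2f7 (0.552). For Rptor KO it was -1.15 ± 0.40 for E2f2 (limma, adjusted p = 0.939), -0.84 ± 0.63 for E2f8, -0.30 ± 0.26 for Rbl1, -0.28 ± 0.39 for E2f1 and -0.35 ± 0.45 for E2f7. The Rptor KO values rest on all 3 pools whose arrays differ, and without the second arrays that of E2f1 turned to 0.04, while E2f2 was at -1.28, E2f8 at -0.78, Rbl1 at -0.23 and E2f7 at -0.35. These comparisons share the WT pools, and with SEs of this size neither an unlike nor a like response is shown for the members.

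The targets were compared between the genotypes in the same way. In Rptor KO 10 of 19 mitotic targets were higher in CSC than in QSC, with a median of 1.56. Over the settings this count ran from 4 to 11. Ccna2 was at 9.47 against 6.45 (3.02 ± 0.23, limma, adjusted p = 0.00228), Mki67 rose by 2.47 ± 0.23, Top2a by 2.34 ± 0.22 and Kif11 by 2.02 ± 0.20. The Rptor KO QSC pool, from which these differences start, was the lowest of all pools for Ccna2, and the CSC pool lay above the WT QSC pools, which reached 9.19, and below the WT CSC pools, which began at 11.03. None of 28 replication targets was called (1 without the 3 second arrays), with a median of 0.57, the highest being Uhrf1 (1.36 ± 0.30, adjusted p = 0.203) and Mcm6 (1.21 ± 0.28, adjusted p = 0.250). The macrophage markers were higher in this CSC pool (mean 9.29 against 7.44), and their part in the mitotic difference was not tested. In cMet KO 0 of 19 mitotic targets and 0 of 28 replication targets were called, with medians of 0.03 and 0.26. Tested against the WT response, that of cMet KO was lower for 6 of 19 mitotic targets, with Kif20a at -2.24 ± 0.25, Bub1b, a spindle checkpoint kinase, at -2.17 ± 0.31, Ccna2 at -1.90 ± 0.26 and Kif11 at -1.85 ± 0.23 (limma, adjusted p = 0.0487 for each). This count ranged from 0 to 19 over the alternatives. Against the WT response, that of Rptor KO differed past the test for none of them, with Plk1 at -1.59 ± 0.42 and Mki67 at 1.07 ± 0.27. For the replication targets neither knockout's response differed past the test from that of WT. Of 28, 27 differences were negative in Rptor KO (median -0.75) and 28 in cMet KO (median -1.15).

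**Figure D4:**
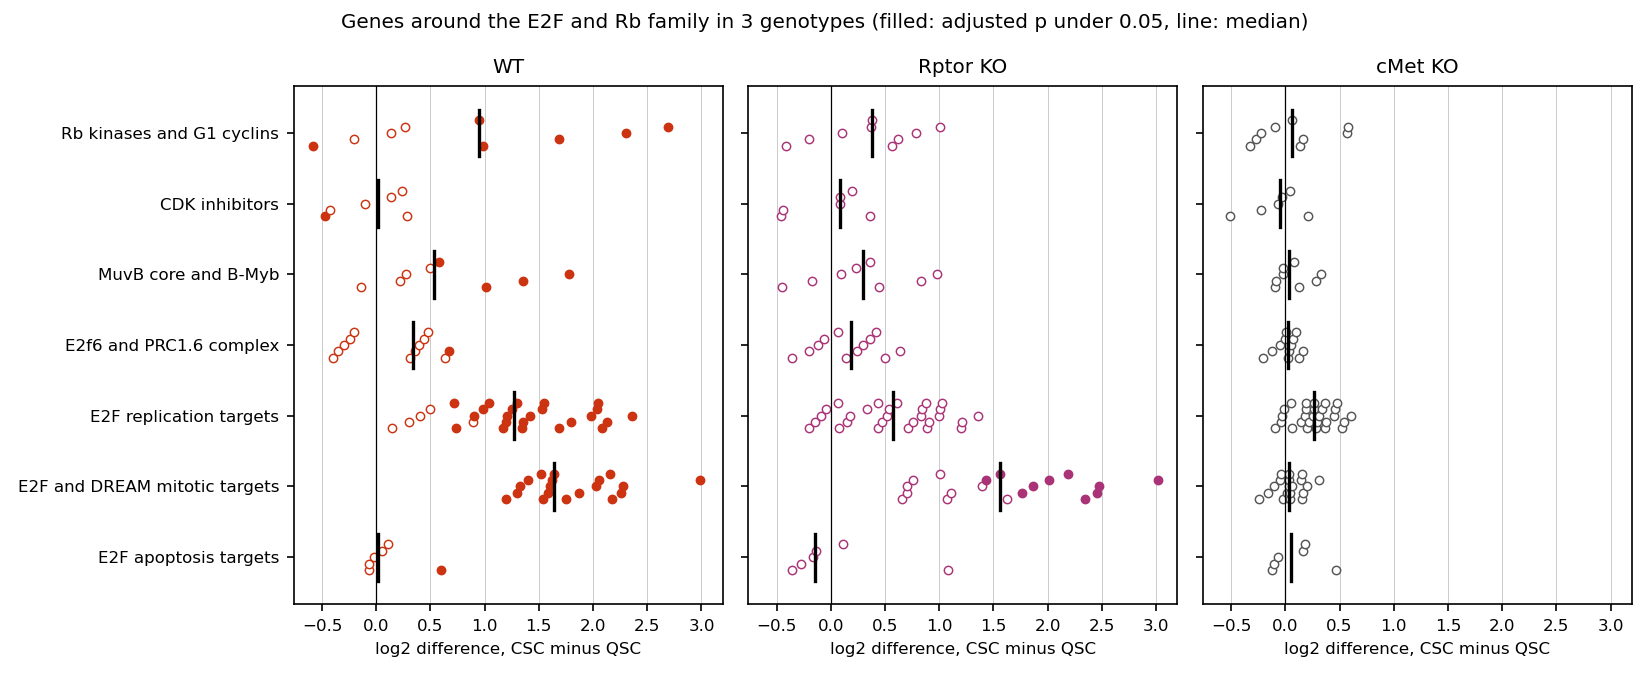
Difference in log2 signal between CSC at 2.5 days and QSC (horizontal axis) for genes of 7 lists around the family (vertical axis) in WT, Rptor KO and cMet KO; points are genes, filled where the adjusted p is under 0.05, and lines are medians. The 19 mitotic targets have medians of 1.64, 1.56 and 0.03 in the 3 genotypes and the 28 replication targets of 1.27, 0.57 and 0.26.

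Across the 8 groups WT CSC at 2.5 days had the highest mean of E2f1, E2f2, E2f3, E2f7, E2f8 and Rbl1, and TSC1 KO QSC the highest level of E2f6, Rb1 and Rbl2. Rptor KO CSC came next after WT CSC for E2f1, E2f2, E2f7 and Rbl1, and TSC1 KO QSC for E2f8. Without the 3 second arrays Rptor KO CSC no longer followed WT CSC for E2f2, at 7.48 where TSC1 KO QSC was at 7.70. Of 70 gaps between neighbouring groups in these orders, 10 exceeded 2 SDs of the WT pools for that gene, and 4 did so without the 3 second arrays. Sorting puts like levels side by side, so small gaps between neighbours do not show that groups are alike. The SD also changed without these arrays, for Rb1 from 0.13 to 0.26 and for E2f5 from 0.20 to 0.16, which moves the limit of 2 SDs. The gaps past it both ways were those between WT CSC and Rptor KO CSC for Rbl1 (0.73 both ways), between Rptor KO CSC and TSC1 KO QSC for E2f1 (0.70, then 0.66) and between WT CSC at 28 days and cMet KO QSC for E2f5 (0.59 both ways). For E2f2 the gap below WT CSC was past it both ways, to Rptor KO CSC (1.33) with all arrays and to TSC1 KO QSC (1.32) without. No gap of Rb1 or E2f6 was past it without the 3 second arrays, and none of E2f3, E2f7, E2f8 or Rbl2 either way.

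The 5 members that rose in WT were grouped by their high levels in the WT CSC pools, which by itself raises their correlation over all pools. Their pairwise Pearson r ran from 0.911 to 0.978 over 12 pools, 3 of which are the WT CSC pools that set the range, and from 0.484 to 0.929 over the other 9 pools. The genes whose pattern over the 12 pools was most like that of a member are given next, 3 for each member. For E2f2 they were Ncapd2, a condensin subunit (r = 0.992), Tomm40, a mitochondrial import pore (0.991), and Espl1, the separase that splits sister chromatids (0.989). For Rbl1 they were Asf1b, a histone chaperone (0.987), and the mitotic spindle genes Knstrn (0.982) and Fam83d (0.981). For E2f1 they were Nes, or nestin (0.988), Adam19 and Ndufa3 (0.982 for each). For E2f7 they were Ndufa3 (0.989), Fanci, a DNA repair factor (0.983), and Basp1 (0.981), and for E2f8 Ammecr1 (0.985), Get3 (0.983) and Atp5g3 (0.982). Over the 9 pools without WT CSC at 2.5 days the first of each was at 0.946 for E2f2, 0.954 for Rbl1, 0.950 for E2f1, 0.949 for E2f7 and 0.936 for E2f8.

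The members that were not called higher in WT CSC had other neighbours. E2f5 was most like Mios (0.978), Rab18 and Sf3b1, E2f6 like Pus7l (0.984), Hacd3 and Ptp4a2, and E2f3 like Zfp706 (0.918), Klhdc10 and Pabpn1. Rb1 was most like Pkia (0.959), Zfp106 and Pon2, and Rbl2 like Gpatch11 (0.983), Kcnk2 and Syt11. Without the WT CSC pools the first of each was at 0.973 for E2f5, 0.988 for E2f6, 0.833 for E2f3, 0.962 for Rb1 and 0.988 for Rbl2. The pools share groups and normalization, so these values are descriptions.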

How the data were processed

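Per the submitters' processing notes, the authors computed the deposited log2 signals by RMA with Affymetrix Expression Console; its version, and which arrays were normalized together, were not given in the sources used here. Probesets carrying a single symbol in the platform annotation (21789 of 35556) were named, and a gene took its brightest. The 21 arrays were averaged within 12 pools, and genes whose mean fell below log2 6.45, the 30th percentile, were not tested. The 13956 others were fitted in R 4.3.3 (limma 3.58.1, lmFit then eBayes) with a mean per group, 12 contrasts, Benjamini-Hochberg adjustment over all genes and a threshold of 0.05. The spread has 4 residual degrees of freedom, from the replicated WT groups, and a prior of 5.01. The number of pools limits the precision. The fit was tested on simulated data.

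The members, gene lists, markers and tests were chosen with earlier results of these data known. Named genes are the members, up to 4 called genes of smallest p in a list described (the 2 largest differences where none is called) and the 3 genes of highest Pearson r with each member; Ccnd2 was named after its value was seen, as the 1 that fell. Alternatives were quantile normalization again, centring, other filters, the mean of all probesets, trend and robust options, a random block for pools, first or second arrays, each WT pool left out, the WT pools alone, and the replicate block. Leaving out 3 second arrays was chosen after seeing the data. Promoters are from RefSeq, GRCm38.p6. Figures were drawn with matplotlib 3.10.9.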

Additional observations from a re-analysis of the deposited data

How the results depend on the processing

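Of 1940 values of the 10 members in all comparisons under 18 settings, 1852 kept their direction and side of the threshold, 37 lost a call, 9 gained one and 42 changed direction, none of these 42 belonging to a called difference. In WT CSC at 2.5 days against WT QSC 5 to 7 members were called, and E2f1, E2f2, E2f7, E2f8 and Rbl1 were called under all 18 settings. In that comparison Rb1 turned to -0.023 after quantile normalization again and to -0.13 on second arrays, and ran from -0.083 (without WT QSC pool 2) to 0.058 as each WT pool was left out. For Rptor KO CSC against WT CSC the 2 calls became 0 with no filter or on second arrays, 1 with trend and robust options, on first arrays or without the 3 second arrays, and 4 with pools as a random block, and ran from 0 to 3 as each WT pool was left out. For cMet KO CSC against WT CSC the 4 calls became 2 on second arrays and ran from 1 to 4 as each WT pool was left out. Where the responses of cMet KO and WT were compared, the random block gave 2 in place of 0. Over all genes the 2510 calls of the WT comparison fell to 1280, 1274 and 1181 without WT CSC pool 1, 2 or 3, which also removes residual degrees of freedom. The calls that were higher made up 59.1%, against 67.1% after centring and 51.2% to 70.9% with a WT pool left out.

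The other changes of direction were of differences between -0.28 and 0.18. After quantile normalization again they were Rb1 at 28 against 2.5 days (0.022), E2f3 (-0.013) and E2f5 (-0.050) in TSC1 KO QSC, E2f5 in Rptor KO CSC against WT CSC (0.017) and Rb1 in the cMet KO response against that of WT (0.0065). Centring turned E2f3 at 28 days against WT QSC (-0.031), and the random block turned E2f2 in cMet KO QSC (0.0056). First arrays turned E2f7 in TSC1 KO QSC (-0.040), E2f2 in cMet KO QSC (0.072), E2f6 between the Rptor KO pools (0.11), E2f5 in Rptor KO CSC against WT CSC (0.26) and E2f1 in the Rptor KO response (0.026). Second arrays turned Rb1 at 28 days against WT QSC (0.046) and against 2.5 days (0.17), E2f1 in Rptor KO QSC (0.17), E2f8 between the cMet KO pools (0.060) and Rb1 in the cMet KO response (0.12). Leaving out the 3 second arrays turned E2f6 between the Rptor KO pools (0.11), E2f5 in Rptor KO CSC against WT CSC (0.26) and E2f1 in the Rptor KO response (0.042). As each WT pool was left out, values at 28 days against WT QSC ran from -0.035 to 0.074 for E2f3, -0.098 to 0.043 for Rb1 and -0.048 to 0.43 for Rbl2, and against 2.5 days from -0.061 to 0.043 for Rb1. In TSC1 KO QSC they ran from -0.025 to 0.18 for E2f1, -0.045 to 0.12 for E2f5 and -0.12 to 0.11 for E2f7, and in cMet KO QSC from -0.20 to 0.12 for E2f2, -0.082 to 0.14 for E2f7, -0.18 to 0.49 for E2f8 and -0.10 to 0.38 for Rbl2. They ran from -0.16 to 0.065 for E2f5 in Rptor KO CSC against WT CSC, from -0.011 to 0.20 for E2f3 in the Rptor KO response and from -0.095 to 0.046 for Rb1 in the cMet KO response. The cause was not tested.

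Replicate numbers are shared by WT QSC and WT CSC. Deviations from the group means correlated at 0.32, -0.03 and -0.03 between pools of the same number. Not every pool was most like the pool of its number. With 3 pools in each group these values cannot decide whether the numbers pair the pools. With the replicate block 6 members and 2796 genes were called. Pool numbers limit what can be detected, and a difference of a single pool rests on the spread of the WT pools.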

Other observations

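Regulators and targets around the family differed between the knockout CSC pools and WT CSC at 2.5 days. Of all tested genes 6.74% were called for cMet KO CSC and 3.9% for Rptor KO CSC. In cMet KO CSC the 19 tested mitotic targets were all lower, with a median of -1.54, and so were 16 of 28 replication targets. Of 9 kinases and cyclins that act on pocket proteins 4 were lower and 1 was higher: Cdk6 differed by -2.06 ± 0.25, Ccne1 by -1.79 ± 0.26, Ccne2 by -1.99 ± 0.28 and Cdk4 by -0.99 ± 0.18, while Ccnd2, the cyclin D2 that was lower in WT CSC than in WT QSC, was higher by 1.38 ± 0.19 (limma, adjusted p from 0.00317 to 0.0145). In Rptor KO CSC 14 of 19 mitotic targets, 9 of 28 replication targets and 3 of the 9 kinases and cyclins were lower, Ccne2 by -1.90 ± 0.28, Ccne1 by -1.48 ± 0.26 and Cdk4 by -0.82 ± 0.18, and none was higher. Over the settings these 3 counts of lower genes in Rptor KO CSC ran from 2 to 18, 0 to 16 and 0 to 5. Those of cMet KO CSC ran from 15 to 19, 10 to 18 and 3 to 6. Part of the endothelial and fibro-adipogenic markers were higher in cMet KO CSC, macrophage markers were higher in Rptor KO CSC and the median of mature fibre markers was lower in both, as given above, and their part was not tested.

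E2f4 and Tfdp1, which were higher in all WT CSC pools at 2.5 days, were near the WT QSC range in the single pools. E2f4 was at 8.73 to 9.48 in the 6 single pools, where the WT QSC pools ran from 8.30 to 9.46. Tfdp1 was at 8.83 to 9.34 in them, where WT QSC ran from 8.84 to 9.40 and WT CSC from 10.02 to 10.18.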
